A study of Mus musculus with 15 samples.

Results

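The set described is the group of array probes placed on mouse chromosome 18, the chromosome that carries Apc. A probe was taken when it was not a control and when the coordinate column of the scanner files put it on chromosome 18 of the mm7 assembly. This gave 1110 of the 41174 non-control probes, printed as 1164 spots because 6 of them were spotted more than once, and 508 named genes. The first probe started 3.433 Mb and the last ended 90.908 Mb from the start of the chromosome, 613 were annotated to the plus strand and 497 to the minus strand, and 37858 probes on the 18 other autosomes served as the reference.

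Chromosome 18 holds Apc, the gatekeeper of the intestinal crypt, whose protein is part of the complex that marks beta-catenin for destruction and so holds Wnt target genes in check. In mice that carry the Min allele, adenomas form from cells that have lost the remaining wild-type Apc allele, often together with other wild-type markers of the chromosome. The chromosome also holds Smad2, Smad4, Smad7 and Dcc, whose human counterparts lie on the long arm of human chromosome 18, a region often lost in colorectal cancer, and the 3 tandem clusters of protocadherin genes.

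The measurements came from 15 Agilent arrays of the whole mouse genome read in 1 colour, each with amplified RNA of laser-microdissected colon tissue from male Apc+/Min-FCCC mice on the C57BL/6J background, aged 6 to 8 weeks at colonoscopy. All groups thus carry 1 Min allele of Apc. The 4 groups were adenoma from tumor-bearing mice on plain chow (3 arrays), adenoma from tumor-bearing mice given sulindac at 300 ppm with atorvastatin at 100 ppm (4 arrays), epithelium of tumor-free mice given atorvastatin at 100 ppm (4 arrays), and normal epithelium of tumor-bearing mice given atorvastatin (4 arrays), all for 7 days. No epithelium came from mice on plain chow or from mice given sulindac, so tissue and drug cannot be told apart in any comparison of adenoma with epithelium. The series' design text lists atorvastatin for tumor-free mice alone, so the drug of tumor-bearing epithelium rests on the sample labels.

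The labels call the arrays biological replicates, but 6 pairs of arrays within a group differed by less than the noise between spots of one array (SD of the log2 difference 0.0857 to 0.17, against 0.595 to 1.12 for the other 15 pairs within a group), and such arrays were averaged and counted as 1 sample. This left 2 untreated adenoma samples, 2 treated adenoma samples, 3 tumor-free epithelium samples and 3 tumor-bearing epithelium samples. One further pair lay across groups: array 2 of tumor-free and array 2 of tumor-bearing epithelium had an SD of 0.183, where every other pair across groups had at least 0.618. Both were kept under their labels, and the shifts and the counts of calls without them are given beside those with them. Of all non-control probes, 56.5% to 75.5% per array were well above background, a flag set by the scanner software. All 9 epithelial markers (Epcam, Cdh1, keratins and others) were well above background on all arrays, 7 of 8 Wnt target markers of adenoma were higher in adenoma, and 7 of 7 absorptive colonocyte markers were lower.

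The question addressed was whether probes on the chromosome of Apc as a body read differently in adenoma and in epithelium. They did not read lower in adenoma. Over the 701 chromosome 18 probes tested, the median log2 difference between adenomas and epithelium was 0.16, against -0.11 over the tested probes of the other autosomes, a shift of 0.26 (log2). The shifts of the other 18 autosomes, computed in the same way, ran from -0.20 for chromosome 7 to 0.13 for chromosome 1, so that chromosome 18 was the highest of the 19. Members were tested where at least 1 group had them well above background throughout, which can admit a probe through the side where it is high, so the shift is a description and carries no test. Among the 467 probes that were well above background on all 15 arrays the shift was 0.11, and with no filter on dim probes it was 0.12.

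By sample, with each probe centred on the mean of the 4 group means, the chromosome 18 shift was 0.13 and 0.04 in the untreated adenoma samples and 0.37 and 0.05 in the treated adenoma samples. In tumor-free epithelium it was 0.05, -0.17 and -0.01, and in tumor-bearing epithelium it was -0.34, -0.25 and -0.12. All 4 adenoma samples lay above 0 and 5 of 6 epithelium samples below it, but the sides overlapped, since the highest tumor-free epithelium sample reached the level of the lowest adenoma samples. These signs depend on which probes are taken. Among probes well above background on all arrays, 3 of 4 adenoma samples and 2 of 6 epithelium samples lay above 0. Over the tested probes, the spread between samples of one group was wide (pooled SD 0.133). Sample 1 of treated adenoma, a single array, carried much of the shift: without it the value was 0.13. Without the near-identical arrays of different groups it was 0.17. Chromosome 6, on which adenomas lay below epithelium, was the only autosome on which the sides did not overlap.

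**Figure D1:**
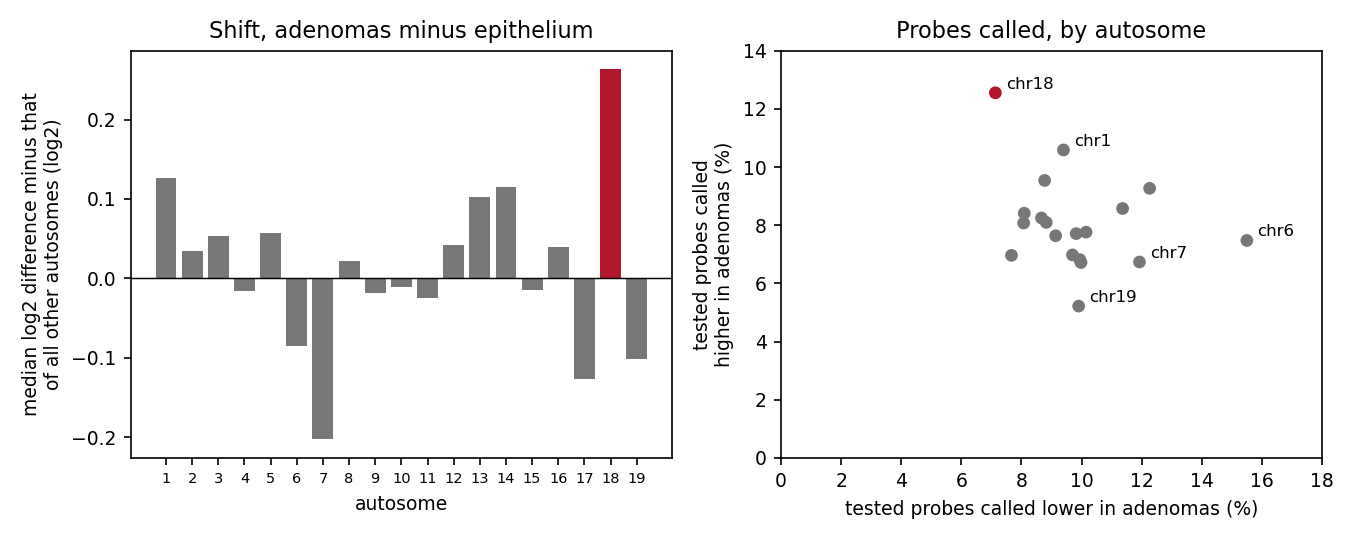
Left, shift of each autosome in the comparison of all adenomas with all epithelium (median log2 difference of its tested probes minus the median over the other autosomes). Right, percent of tested probes called higher (vertical) against percent called lower (horizontal), 1 point an autosome. Chromosome 18, in red, has the highest shift (0.26), the highest percent called higher (12.6%) and the lowest percent called lower (7.13%).

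**Figure D2:**
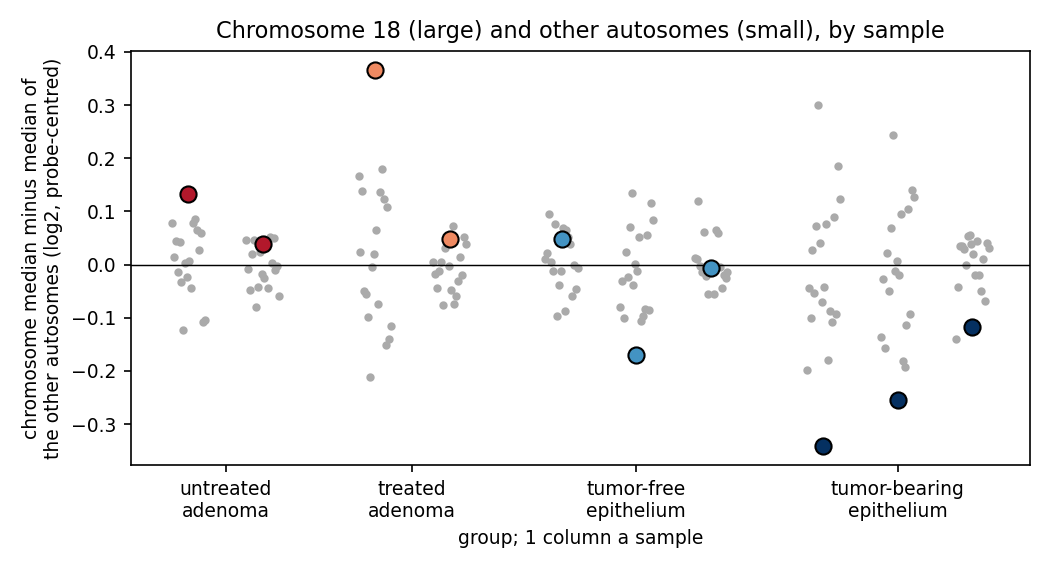
Shift of chromosome 18 (large points) and of each other autosome (small grey points) in every sample, in log2 units after centring each probe on the mean of the group means. The treated adenoma sample at 0.37 is the highest chromosome 18 point and a tumor-bearing epithelium sample at -0.34 the lowest; the other adenoma samples sit within the cloud of the other autosomes or just above it.

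The pairwise comparisons share samples and are set side by side. The shift was 0.29 for untreated adenoma and 0.38 for treated adenoma against tumor-bearing epithelium, and 0.11 and 0.18 against tumor-free epithelium. Chromosome 18 had the highest shift of the 19 autosomes in each of the 4. For untreated adenoma against tumor-free epithelium its lead was slight, 0.109 where chromosome 1 had 0.102. Tumor-bearing against tumor-free epithelium gave -0.18, the lowest of the 19, and treated against untreated adenoma gave 0.10, the highest. The last value had no settled sign: it was above 0 in 20 of 23 alternatives, and -0.04 without treated adenoma sample 1. Without the near-identical arrays of different groups, the shifts against tumor-free epithelium were 0.043 for untreated and 0.12 for treated adenoma, and those against tumor-bearing epithelium 0.29 and 0.37. Leaving out treated adenoma sample 2 raised the treated values to 0.59 and 0.35, and leaving out sample 1 lowered them to 0.22 and 0.097. Scan dates that held both sides held tumor-bearing epithelium alone on the epithelium side. Within them the shift was 0.43 on scan date 1, 0.53 on scan date 2 and 0.16 on scan date 4, with chromosome 18 the highest autosome on each. Scan dates 1 and 2 are not independent, since both held arrays of untreated adenoma sample 1 and of tumor-bearing epithelium sample 1. Treated adenoma sample 1, which carried much of the shift, was also on scan date 2.

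Detection differed in the same direction. The percent of chromosome 18 probes well above background was below that of the other autosomes on every array. Chromosome 18 minus the other autosomes came to -2.67 to -1.23 percentage points in untreated adenoma and -2.05 to -1.49 in treated adenoma. In epithelium it was -5.32 to -3.85 points in the tumor-free group and -6.34 to -4.63 in the tumor-bearing group, so the adenoma and epithelium arrays did not overlap in it. The units here are arrays, so near-identical arrays, averaged elsewhere, count separately in these ranges and in the average that follows. Averaged over arrays, adenoma minus epithelium came to 3.24 points more on chromosome 18 than on the other autosomes, where the next autosome, chromosome 14, had 0.779. The part of detection in the shift was not tested.

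Gene by gene, 138 of the 701 tested probes were called between adenomas and epithelium at an adjusted p under 0.05 (limma, Benjamini-Hochberg over all 27141 probes tested), beside 17.8% of all probes tested. The 88 probes called higher in adenoma, in 60 named genes, made 12.6% of those tested, where 7.92% of all tested probes were called higher. The 50 called lower, in 37 named genes, made 7.13%, where 9.88% of all were called lower. Among the autosomes chromosome 18 thus had the highest share called higher (5.22% to 10.6% on the others) and the lowest share called lower (7.67% to 15.5%). Both orders against the pooled other autosomes held in all 23 alternatives tried. Without the near-identical arrays of different groups 93 were called. Of the 138, the adenoma and epithelium samples did not overlap in 102; over all tested probes, called or not, the sides did not overlap in 17.7% on chromosome 18 and in 15.6% of the whole array, so that share was near the background. Among the 467 probes above background on all arrays, 33 were called higher and 34 lower, so the excess of higher over lower calls was not present there, while the other autosomes had 5.12% higher and 9.11% lower against 7.07% and 7.28% on chromosome 18. Of the 1110 members, 409 were not tested and 184 were not well above background on any array.

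In the pairwise tests (limma, adjusted p under 0.05), 46 chromosome 18 probes were higher and 19 lower in untreated adenoma than in tumor-bearing epithelium, 65 of 652 tested, beside 9.03% of all tested probes called (4.36% higher and 4.68% lower). Treated adenoma against the same epithelium gave 61 higher and 23 lower of 628, beside 10.9% of all (5.48% higher and 5.47% lower). Against tumor-free epithelium, untreated adenoma had 33 higher and 22 lower of 683, beside 7.5% of all (3.34% and 4.16%). Treated adenoma had 50 higher and 28 lower of 672, beside 8.02% of all (3.64% and 4.38%). These counts hung on single samples: without sample 2 of untreated adenoma its counts fell to 16 against each epithelium, and without sample 1 of treated adenoma its counts fell to 34 and 26. Without the near-identical arrays of different groups, the counts were 43 and 63 for untreated and treated adenoma against tumor-bearing epithelium and 31 and 44 against tumor-free epithelium. Between treated and untreated adenoma limma called 0 of 676 chromosome 18 probes, beside 0.178% of all (0.107% higher and 0.0711% lower), with 84 at an unadjusted p under 0.05. Between the epithelia it called 0 of 612, beside 0% of all, with 18 at an unadjusted p under 0.05. Neither unadjusted count is set beside a share of all tested probes, so neither is read as a result about the chromosome.

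Position along the chromosome was examined in bins of 10 Mb. In the order of the chromosome, the medians of the 9 bins with at least 20 tested probes were 0.23, 0.26, 0.28, 0.07, 0.30, 0.16, 0.29, -0.39 and 0.08 (log2, adenomas minus epithelium). Of these 8 were above 0, where 42.4% of 236 such bins on the other autosomes were, and all 9 lay within the 5th to 95th percentile of those bins (-0.41 to 0.40). With 1 probe per gene, 6 of the 9 were above 0, since the 1st bin then had -0.06 and the bin from 80 to 90 Mb -0.20. The bin from 70 to 80 Mb, negative in both, holds Smad4, Smad2, Smad7 and Dcc and had 9 probes called higher and 9 lower of 72. The bin before it, 60 to 70 Mb, had 24 higher and 7 lower of 125. In bins of 5 Mb, 12 of the 14 with at least 20 tested probes lay within the 5th to 95th percentile of the other autosomes' bins (-0.48 to 0.48). The 2 above it were 45 to 50 Mb (median 0.50 over 26 probes) and 65 to 70 Mb (0.72 over 56). In the latter, described after its values were seen, 11 probes rose and 0 of the 56 fell, beside 7.92% and 9.88% of all tested probes, in genes that include Tubb6, a tubulin, Ptpn2, a phosphatase that restrains JAK and STAT signalling, Ldlrad4, an inhibitor of TGF-beta signalling, and Tcf4, a basic helix-loop-helix factor distinct from the Wnt effector once given the same name.

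Distance from Apc did not order the differences. The 187 tested probes within 5 Mb of the Apc probe had a median difference of 0.12, or 0.05 without the clustered protocadherins. The 154 probes at 5 to 20 Mb had 0.25 and the 360 farther away 0.13. The middle 50% of probes ran from -0.54 to 0.76 in the nearest group and from -0.56 to 0.89 in the farthest.

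**Figure D3:**
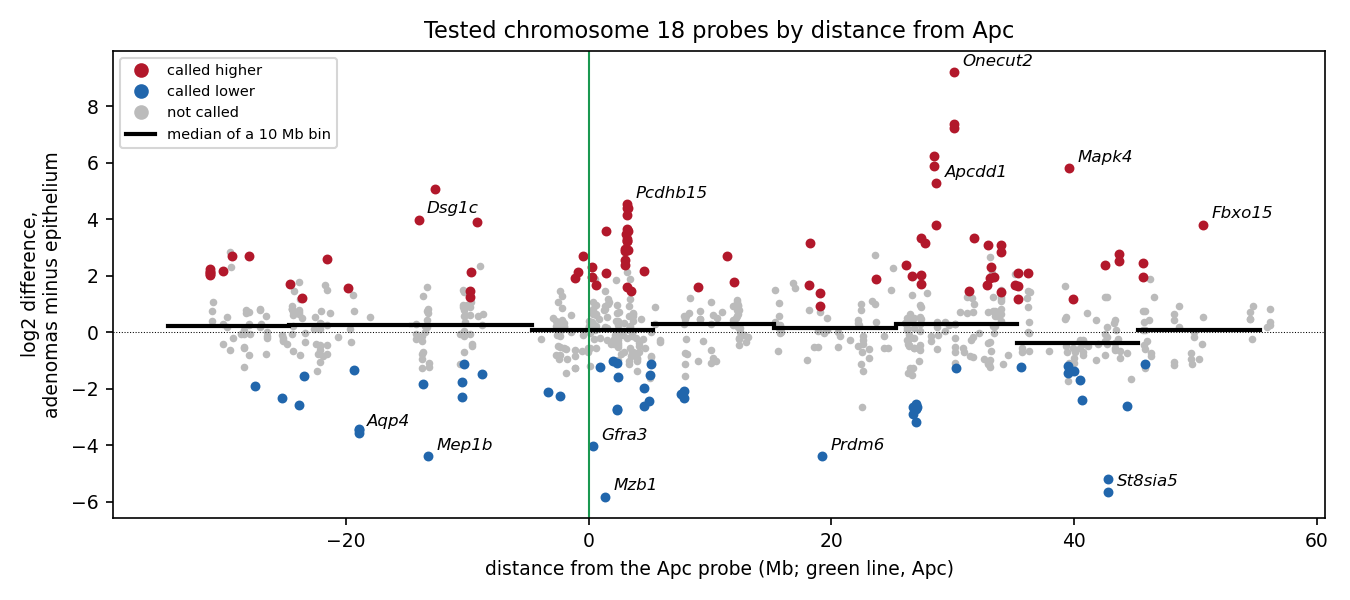
Log2 difference (adenomas minus epithelium) of each tested chromosome 18 probe against its distance from the Apc probe in Mb; black bars are medians of 10 Mb bins. The bars lie between -0.39 and 0.30, and the only negative bar is the bin from 70 to 80 Mb of the chromosome. Single genes range from Onecut2 at 9.22 to Mzb1 at -5.82.

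Apc itself was not called. The array holds 6 Apc probes on the plus strand, of which 5 were tested and 1 (A_52_P284981) was not well above background on any array. The most 3′ probe, A_51_P273378 (mm7 chr18:34697260-34697319), read 0.98 and 0.95 in untreated adenoma and 2.01 and 0.77 in treated adenoma, and 0.29, 0.99 and 1.38 as the lowest, median and highest of the 6 epithelium samples (log2 of the signal over the array's 75th percentile). The sides overlapped, and the difference was 0.24 ± 0.35 (SE, adjusted p = 0.661, limma). The probe spotted 10 times, A_52_P675171, read -3.56, -3.65, -4.01 and -3.95 in the adenoma samples and from -5.08 to -1.77 in epithelium, a difference of 0.11 ± 0.61. Its epithelium range held the adenoma values.

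The Apc probes were not alike. The pair nearest the start of the gene had negative differences: -0.54 for A_51_P429446 (chr18:34640774-34640833) and -0.71 ± 0.28 for A_52_P633752, whose target runs from 34647968 to 34652043. The latter read -5.42, -5.13, -4.68 and -4.94 in adenoma against -4.57 to -4.07 in epithelium. Its samples did not overlap, but it did not pass over all probes (adjusted p = 0.112, limma) and was the only Apc probe of the 5 with an unadjusted p under 0.05. The 3 tested probes near the 3′ end had 0.11, 0.17 and 0.24. No Apc probe was called in a pairwise comparison, where the lowest adjusted p was 0.158.

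Within 2 Mb of the Apc probe, 67 probes of 39 genes were tested, with a median difference of 0.23, and 12 were called, beside the 17.8% of all probes tested. Higher in adenoma were Ecscr (3.58 ± 0.46), a surface protein named for endothelial cells, Sting1 (2.12 ± 0.40), the adaptor of cytosolic DNA sensing, Nrep (2.13 ± 0.37), a protein of neuronal regeneration, Nme5 and Camk4, a calcium-dependent kinase. Lower were Mzb1, Gfra3, Sil1 (-1.23 ± 0.33), an exchange factor of the endoplasmic reticulum chaperone BiP, and Pura (-1.02 ± 0.31), a nucleic acid binding protein. Both directions thus occurred among neighbours of Apc. Nrep was well above background on 2 of 8 epithelium arrays and Nme5 on 4, so their epithelium values lie near the floor. The calls of Nme5, Sil1, Pura and Camk4 were each lost without untreated adenoma sample 1, without treated adenoma sample 1 and without at least 5 other single samples, with adjusted p up to 0.104, 0.0982, 0.189 and 0.291, and Camk4 was not well above background on any of the 8 epithelium arrays, so no fold is given.

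Mzb1 (A_51_P452153, 10 spots, chr18:36023634-36023693), a chaperone helper of plasma cells and marginal zone B cells, read -5.13 and -4.25 in untreated and -5.45 and -5.66 in treated adenoma. In epithelium it read -0.26, 0.65 and 1.86 (lowest, median and highest of 6). The sides lay far apart, and the difference was -5.82 ± 0.37 (adjusted p = 7.93e-06, limma). The lowest signal that counts as above background ran from -6.98 to -5.61 by adenoma array, so the lowest adenoma value lies near the floor. Of the B cell and plasma cell markers listed, 3 of 4 tested were also lower in adenoma, and their summed level ranged from -0.53 to 0.35 in adenoma and from 4.52 to 5.60 in epithelium (log2), with none of the 6 below background on all arrays. Their part in the Mzb1 difference was not tested, and fewer cells of a type and less RNA per cell cannot be told apart in such samples.

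Gfra3 (A_51_P520426, chr18:35065910-35065969), the receptor of the nerve growth factor artemin, read -2.83, -2.87, -5.19 and -4.39 in adenoma and -0.22, 0.12 and 1.1 in epithelium. All adenoma samples were below all epithelium samples, by -4.02 ± 0.34 (adjusted p = 4.31e-05, limma). Ecscr read 3.36, 3.69, 3.47 and 3.89 in adenoma and -0.76, -0.32 and 1.89 in epithelium. Of 6 endothelial markers 1 was higher, and their summed level was 2.55 to 3.55 in adenoma and 1.62 to 3.30 in epithelium; their part in the Ecscr difference was not tested.

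Some further genes of the Wnt pathway were examined as a list with Apc: Mcc, the casein kinases Csnk1a1 and Csnk1g3, alpha-catenin (Ctnna1), Wnt8a, Cxxc5 and Ppp2r2b. Of its 18 tested probes in 7 genes limma called 0, beside 17.8% of all tested probes called. At an unadjusted p under 0.05 there were 2, and the median was 0.14, against -0.10 over all tested probes. The differences ran from -0.71 (Apc) to 1.22 (Ppp2r2b, a phosphatase subunit, adjusted p = 0.148). Csnk1a1, the kinase that primes beta-catenin for destruction, had 5 tested probes with differences from -0.56 to 0.55. The list is not complete: the Wnt pathway genes Apcdd1 and Fzd8 of the same chromosome stand outside it and were called, so its count of 0 does not cover the pathway.

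Apcdd1 (A_51_P175018, chr18:63343087-63343146), a membrane-bound inhibitor of Wnt signalling named for its link to APC, read 3.84 and 3.28 in untreated and 5.08 and 5.22 in treated adenoma, and -2.07, -0.61 and -0.27 in epithelium. The sides lay far apart, and the difference was 5.29 ± 0.39 (adjusted p = 1.8e-05, limma). Fzd8 (A_52_P676589, chr18:9421603-9421662), a Wnt receptor, went the other way. It read -5.92, -6.57, -5.56 and -5.20 in adenoma and -3.91, -3.65 and -2.55 in epithelium, a difference of -2.33 ± 0.36 (adjusted p = 0.00171, limma), with no overlap. The lowest signal that counts as above background ran from -6.98 to -5.61 by adenoma array. The adenoma values of Fzd8 thus lie near the floor, and the size of the difference rests on them.

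Among the TGF-beta genes and the counterparts of the human 18q tumour suppressor region, the Smad genes and Dcc were not called. Smad4, the shared partner of the receptor-activated Smads, had 2 probes that differed in sign, 0.54 and -0.50 (adjusted p = 0.468 and 0.3). On the first it read 1.70, 2.05, 1.58 and 0.93 in adenoma and -0.23, 0.88 and 2.17 in epithelium, so the epithelium samples spread over the whole adenoma range. Smad2 had a difference of -0.41 and Smad7, the inhibitory Smad, 0.70 (adjusted p = 0.116). Dcc, a netrin receptor, was not well above background on any array and was not tested. Over the list, 17 probes of 12 genes were tested. In it 3 probes rose, of Ldlrad4 and Mapk4, and 3 fell, of Mbd1 and Me2, beside 7.92% and 9.88% of all tested probes. The median was -0.56, against -0.10 over all tested probes; 6 of 17 probes lay above 0.

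Mapk4 (A_51_P245895, chr18:74323165-74323224), an atypical mitogen-activated kinase, read -1.81, -1.41, -1.23 and -0.82 in adenoma and -7.50, -7.32 and -6.49 in epithelium. It was well above background on all 7 adenoma arrays and on 1 of 8 epithelium arrays. The difference was 5.81 ± 0.34 (adjusted p = 4.01e-06, limma), with a wide gap between the sides, but the epithelium values lie near the floor of the array and the size of the difference rests on them. Ldlrad4 rose by 2.86 ± 0.63, a call lost without sample 1 of untreated adenoma or sample 1 of treated adenoma (adjusted p up to 0.0531). Mbd1, a reader of methylated CpG sites, fell by 1.36 on 1 of its 3 tested probes, and Me2, the mitochondrial malic enzyme, by 1.43 and 1.20 on 2 probes.

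The clustered protocadherins, cadherin-like surface proteins best known for the recognition between neurons, formed the largest block of calls. Of 29 tested probes 16 rose, in 13 of 21 tested genes, none fell, and the median difference was 2.37. All 16 belonged to the beta cluster, where 16 of 18 tested probes in 13 of 15 genes were called, beside 7.92% of all tested probes called higher. In the alpha cluster limma called 0 of 5 tested probes (1 at an unadjusted p under 0.05) and in the gamma cluster 0 of 6 (0 at an unadjusted p under 0.05), with medians of -0.08 and 0.02. The split by cluster was made after the values were seen, and a difference between clusters was not tested. Pcdhb15, inside the beta cluster, lies 3.16 Mb from the Apc probe.

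Pcdhb15 (A_51_P159835, chr18:37852158-37852217) read -2.81, -1.82, -2.42 and -2.72 in adenoma and -7.51, -7.20 and -6.21 in epithelium, where it was well above background on 2 of 8 arrays and so near the floor. The difference was 4.54 ± 0.33 (adjusted p = 1.88e-05, limma) and the sides were well apart. Pcdhb16 (4.42), Pcdhb21 (4.41), Pcdhb17 (3.66), Pcdhb20 (3.6), Pcdhb14 (3.30) and Pcdhb3 (2.94) were called too, with no overlap between sides. Of the 8 epithelium arrays, Pcdhb16 and Pcdhb14 were well above background on 3, Pcdhb3 on 4, Pcdhb17 on 5 and Pcdhb20 and Pcdhb21 on 6. The sizes of these differences thus rest in part on values near the floor. Pcdhb21 lost its call without either untreated adenoma sample, without treated adenoma sample 1 or without tumor-bearing epithelium sample 2, and without the near-identical arrays of different groups (adjusted p up to 0.0918). The 2 uncalled beta probes were Pcdhb12, at 2.14 (adjusted p = 0.0716), and Pcdhb18, at -0.20. The beta genes are close copies of one another, and how far 1 probe reads the transcript of a neighbour was not tested. Of the markers of enteric neurons and glia, 1 of 5 tested was called, lower, and their summed level was -1.15 to 0.80 in adenoma and -0.17 to 0.92 in epithelium.

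Counted over neighbours, 84% of the 25 pairs of adjacent tested genes that were both called on chromosome 18 went in the same direction, and 73.3% of the 15 pairs without the protocadherins did. On the other autosomes it was 71.7% of 778 pairs (54.2% to 80% by autosome).

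Onecut2, a homeodomain transcription factor of the gut and liver endoderm, had the largest difference of any named gene of the chromosome. Its probe A_52_P1164839 (chr18:64781513-64781573) read -0.18 and 2.10 in untreated and 4.46 and 3.02 in treated adenoma, and -8.59, -7.20 and -5.41 in epithelium. The difference was 9.22 ± 0.72 (adjusted p = 2.74e-05, limma). It was well above background on 2 of 8 epithelium arrays, so the value there is near the floor of the array. Its other 2 called probes gave 7.25 and 7.39.

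Onecut2 stands in the list of colonocyte transport, brush border and secretion genes, whose other members split. Of 29 tested probes in 15 genes, 6 probes rose, in Onecut2, Slc39a6, a zinc transporter, and Slc14a1, a urea transporter, and 4 fell, in Mep1b, St8sia5 and Atp8b1, beside 7.92% and 9.88% of all tested probes. The median was -0.26. Mep1b, the beta subunit of the brush border protease meprin, read -1.36 and -2.15 in untreated and -5.89 and -4.93 in treated adenoma, and -0.60, 0.90 and 1.98 in epithelium. Its lowest adenoma value lies near the floor, since the lowest signal above background ran from -6.98 to -5.61 by adenoma array. All adenoma samples were below all epithelium samples, by -4.39 ± 0.50 (adjusted p = 0.000252, limma), and the treated adenoma samples were the lowest; the difference between the adenoma groups, -3.65, did not pass (adjusted p = 0.137, limma). St8sia5, a sialyltransferase, fell by 5.65 ± 1.47, but it did not meet the rule of no overlap between sides. Atp8b1 had -1.25 on its called probe, while its other tested probes, at -0.51, 0.29 and 0.29, were not called. Slc12a2 (0.99, adjusted p = 0.117), the basolateral chloride importer, Myo5b and Gata6 were not called. All 7 absorptive colonocyte markers were lower in adenoma, with summed levels of 2.43 to 5.04 in adenoma and 6.96 to 8.55 in epithelium, and their part in these differences was not tested.

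The metabolic genes called were lower in adenoma. Of 24 tested probes in 14 genes of lipid and small molecule metabolism, 5 fell, in Ppargc1b, Acaa2 and Lipg, 0 rose, beside 9.88% lower and 7.92% higher of all tested probes, and the median was -0.66, against -0.10 over all. Ppargc1b, a coactivator of mitochondrial genes, read 1.88, 1.96, 1.78 and 0.66 in adenoma and 3.86, 4.09 and 4.50 in epithelium on A_51_P294891, a difference of -2.55 ± 0.32 (adjusted p = 0.000467, limma) with no overlap. Acaa2, the last enzyme of mitochondrial fatty acid oxidation, had -1.70 ± 0.30, and Lipg, endothelial lipase, -2.41 ± 0.59.

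Of 40 tested probes in 23 genes of translation, splicing and mitochondria, 2 fell, both of Eif4ebp3, a repressor of cap-dependent translation, at -2.74 and -2.71, beside 9.88% of all tested probes. The list's median was 0.44. Rps14, a ribosomal protein, had -0.20 and Atp5a1, a subunit of the mitochondrial ATP synthase, -0.62 and -0.38, none called. Cell cycle genes had a median of 0.62 over 25 tested probes, 19 of them above 0, against a median of -0.10 over all tested probes. In this list 1 probe rose and 2 fell, beside 7.92% and 9.88% of all tested probes. Ska1, a kinetochore protein, rose by 1.19 ± 0.36 and Mapre2, a microtubule end-binding protein, fell by 2.29 ± 0.29 and 1.74. Ska1 (adjusted p = 0.0484, limma) lost its call in 8 of 10 fits that each left out 1 sample (adjusted p up to 0.162).

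Signalling genes split in both directions. Crem, a cAMP-responsive transcription factor, rose on all 5 of its tested probes, by 2.04 to 2.24. On A_52_P460957 it read 1.46, 0.80, 1.27 and 0.22 in adenoma and -1.53, -1.31 and -1.09 in epithelium (adjusted p = 0.00115, limma), with no overlap. Fgf1, a fibroblast growth factor, fell by 2.60 ± 0.44, and Nr3c1, the glucocorticoid receptor, fell by 1.14 on 1 of its 4 tested probes, a call lost without any of 7 of the 10 samples (adjusted p up to 0.109). Egr1, an immediate early factor, had 1.88 ± 0.64 (adjusted p = 0.0674) and Hbegf, an EGF receptor ligand, -0.08. Over the list 6 probes rose and 4 fell of 22, beside 7.92% and 9.88% of all tested probes, with a median of 0.45.

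Among the immune genes, Ptpn2 alone was called, on 1 of 2 tested probes (1.98 ± 0.29, adjusted p = 0.00127, limma; the other had -0.02), and the list's median was 0.33 over 17 probes. Of these 17 probes 1 was thus called higher and 0 lower, beside 7.92% and 9.88% of all tested probes. Csf1r, the receptor that macrophages depend on, had 3 probes between -0.55 and 0.14, and Cd74, the invariant chain of MHC class II, had -1.26 (adjusted p = 0.209). Of 9 macrophage and dendritic cell markers limma called 0, beside 17.8% of all tested probes, and all 9 were well above background on all arrays.

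Of the mesenchyme and matrix genes, Lox, Ccbe1, Ppic and Tcf4 rose and Prdm6 fell (6 probes higher and 1 lower of 18 tested, beside 7.92% and 9.88% of all, median 0.37). Ccbe1 had 3.33 on its called probe, while its other tested probe, at 1.02, was not called. Lox, lysyl oxidase, which crosslinks collagen, read -0.91, -0.95, -1.16 and -1.55 in adenoma and -5.23, -4.22 and -3.23 in epithelium, a difference of 3.16 ± 0.43 (adjusted p = 0.000711, limma) without overlap. Prdm6, a repressor studied in smooth muscle, read -8.27, -8.45, -6.95 and -6.10 in adenoma, where it was well above background on 2 of 7 arrays, and -4.05, -3.04 and -1.91 in epithelium. Its difference was -4.37 ± 0.37 (adjusted p = 4.31e-05, limma). Pdgfrb, the receptor of fibroblasts and pericytes, had 0.52 (adjusted p = 0.422). Of 7 fibroblast markers 1 was called, lower, and their summed level was alike (6.65 to 7.30 in adenoma, 6.64 to 7.27 in epithelium). Of 6 smooth muscle markers 3 were lower, at 3.56 to 4.84 against 4.77 to 5.81, and their part in the Prdm6 difference was not tested.

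Of 13 tested probes of genes known from neural tissue, 7 fell and 1 rose, beside 9.88% and 7.92% of all tested probes, and the median was -1.47, against -0.10 over all. Aqp4, a water channel, Celf4, Rit2, Setbp1 and Ttr, transthyretin, fell, and Dpysl3, a protein of growing axons, rose by 1.60. Aqp4, which crypt cells of the gut also express, read 1.97 and -0.30 in untreated and 1.96 and 0.22 in treated adenoma and 3.27, 4.90 and 5.76 in epithelium. Its 3 probes gave -3.43 to -3.55, the largest being -3.55 ± 0.67 (adjusted p = 0.00495, limma). Setbp1 fell by 2.62 ± 0.57, a call lost without untreated adenoma sample 2 and without the near-identical arrays of different groups (adjusted p up to 0.0564).

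Among desmosomal genes, Dsg1c, a desmoglein, rose by 4.00 ± 0.34 (adjusted p = 4.43e-05, limma). It was the only call among 13 tested probes of the desmosome and basement membrane list, beside 7.92% higher and 9.88% lower of all tested probes. It read -2.43, -1.95, -2.65 and -2.38 in adenoma and -6.79, -6.42 and -5.74 in epithelium, above background on 3 of 8 arrays and so near the floor. The desmosomal cadherins of the simple epithelium, Dsg2 (4 tested probes, -1.25 to -0.12) and Dsc2 (3 tested probes, -0.23 to 0.30), were not called. Lama3, a chain of basement membrane laminin, had 2 tested probes of opposite sign (1.68 and -0.82), neither called. Of the protease inhibitors of the Spink family, 1 of 5 genes on the array, Spink10, was tested (-0.31, not called).

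Fhod3, Fbxo15 and Kcnn2 were called but not well above background on any epithelium array. They are given as the adenoma mean against a floor, the lowest signal that counts as above background averaged over the epithelium samples. Since that lowest signal ran from -6.98 to -4.92 by epithelium array (log2), these are bounds against the average only. Against it, Fhod3, a formin that builds actin filaments, was 4.37-fold higher in adenoma. Fbxo15, an F-box protein of stem cells, was 3.91-fold higher and Kcnn2, a calcium-activated potassium channel, 1.98-fold. The lowest Kcnn2 adenoma sample, at -5.80, lay beside its highest epithelium sample, at -5.81, and below the lowest such signal of some epithelium arrays. Further called genes with no overlap between sides were Pcyox1l (3.35 ± 0.53) among the higher and Slc6a7, a proline transporter (-2.90 ± 0.69), and Sh3rf2 (-2.33 ± 0.47) among the lower. Slc6a7 lost its call without any 1 of the 4 adenoma samples (adjusted p up to 0.0653).

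**Figure D4:**
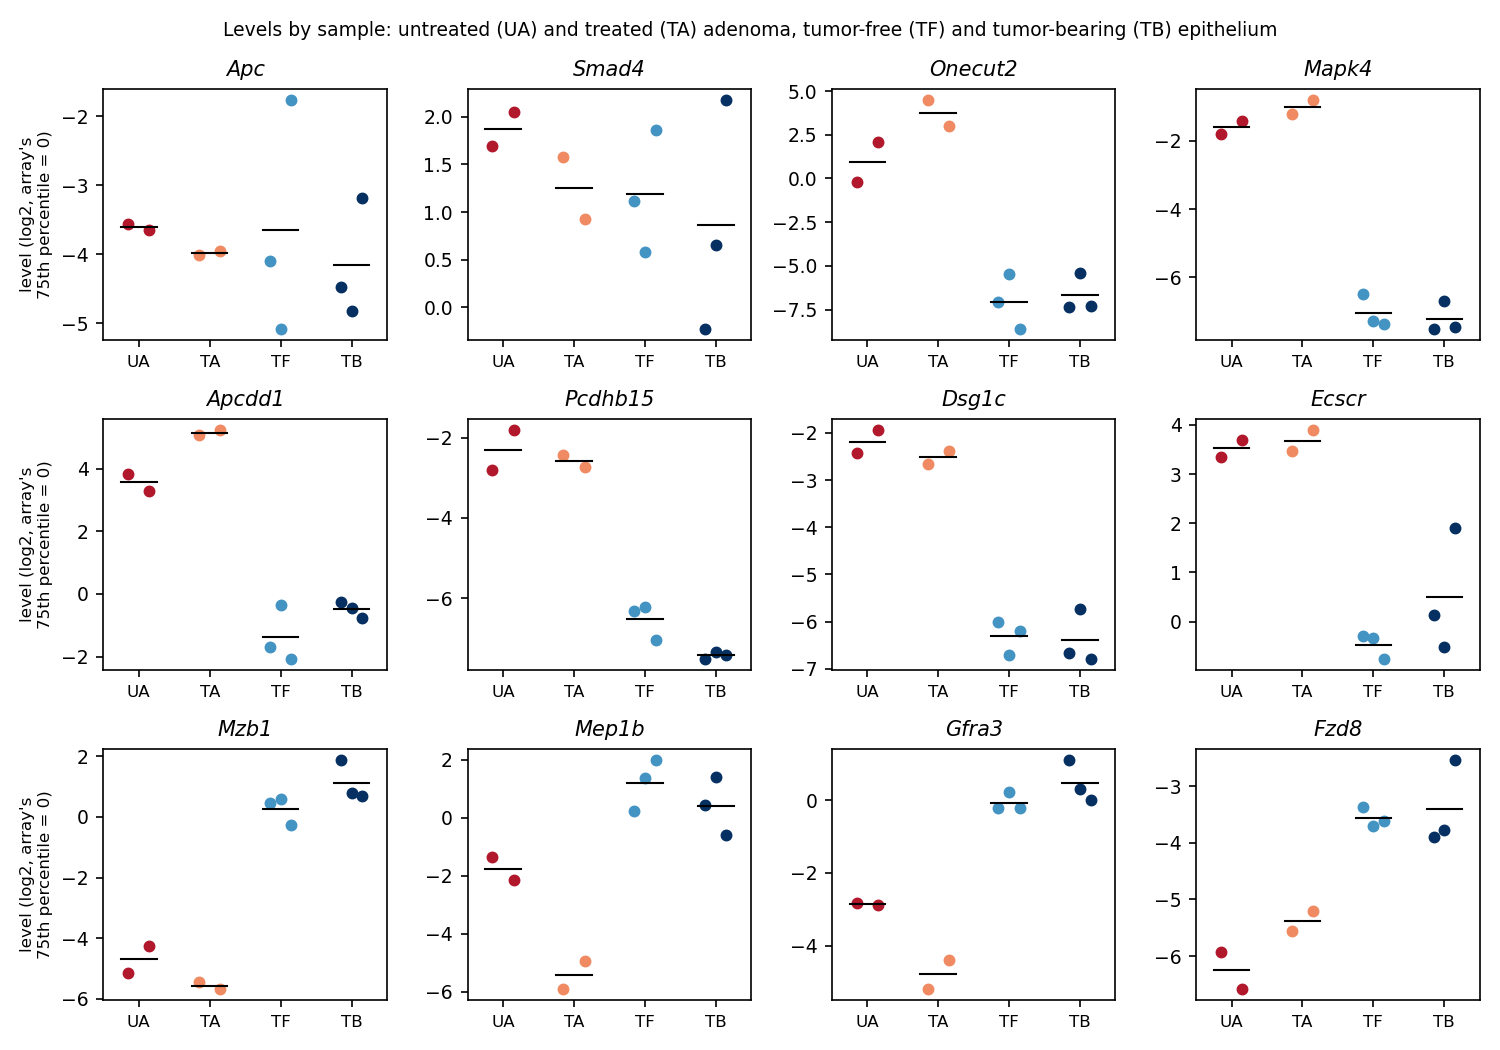
Level of 12 chromosome 18 probes by sample (log2 of the signal over the array's 75th percentile; each panel has its own axis; bars are group means, 2 samples for each adenoma group and 3 for each epithelium group). Apc (the probe spotted 10 times) and Smad4 overlap between adenoma and epithelium, and the other 10 do not.

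**Figure D5:**
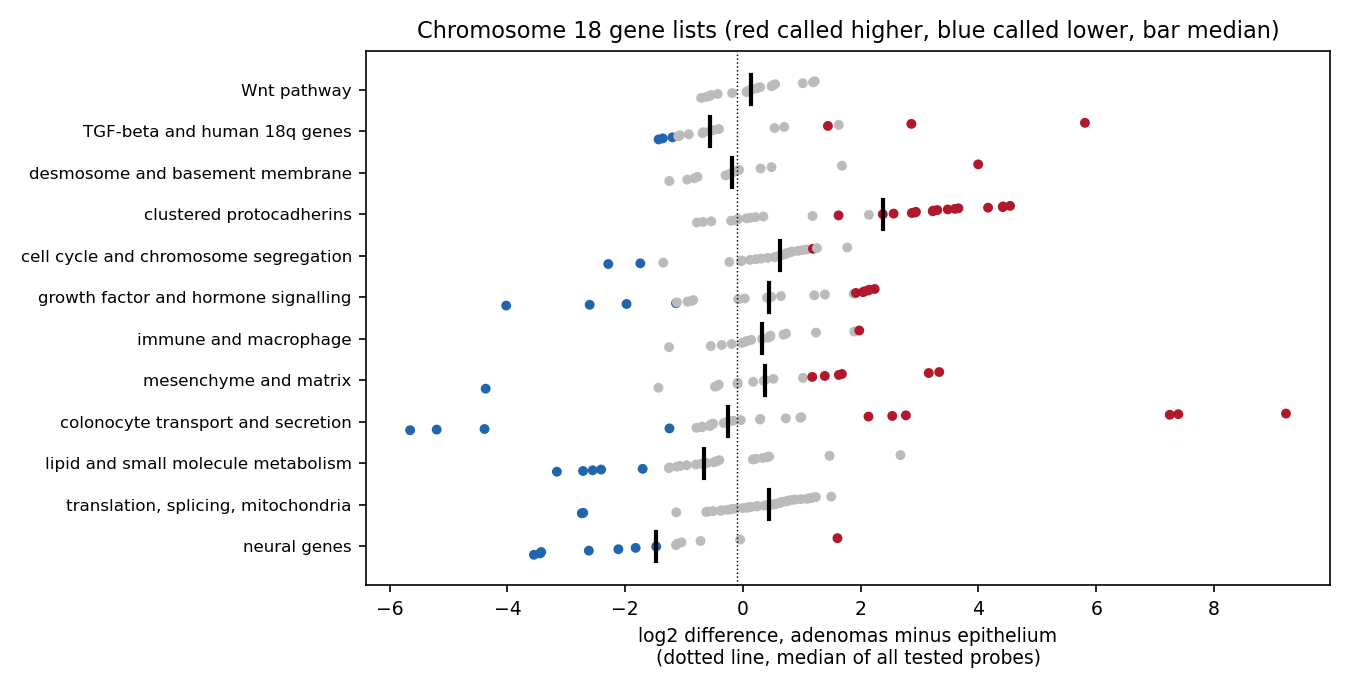
Log2 differences (adenomas minus epithelium) of the tested chromosome 18 probes by gene list, red called higher, blue called lower, grey not called, with the list median as a bar. The protocadherin median (2.37) is the highest and the neural median (-1.47) the lowest, beside -0.10 for all tested probes.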

How the data were processed

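Each of the 15 arrays was read from its deposited scanner table. Per the submitters' processing notes the tables were made with Agilent Feature Extraction 9.5.3. The deposited intensity is the processed Cy3 signal, background-subtracted and detrended within each array with no scaling between arrays, per the file headers; the mean and background intensities and the 0 or 1 flags of the same deposited tables were used too. RNA went through 2 rounds of linear amplification, per the labels' protocols. From the intensity, log2 values minus the array's 75th percentile were computed, without control spots or outlier spots, averaging the spots of a probe. The authors' deposited value table is on a log2 scale, and its columns have near-identical sorted values, while no source used here states its making. Its 4 columns of tumor-bearing epithelium fitted the scanner files in reverse order and the other 11 each fitted the file of the same name, so columns were taken by best fit within the group, as an alternative only.

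Probe positions are those of the files (mm7). Gene names were updated from RefSeq (GRCm38.p6, names only): 874 of the 1110 probes were found there, 4 of them on another chromosome, and 191 probes have no gene name. The members and gene lists were chosen with earlier results of these data known. No probe or promoter sequence is given.

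Near-identical arrays of a group were averaged, and all 4 groups were fitted with limma 3.58.1 (R 4.3.3) on all probes, 6 residual and 4.16 prior degrees of freedom. A probe was tested where at least 1 compared group had it well above background throughout, with at least 2 unflagged arrays a side. Tests were two-sided, and p-values were adjusted by Benjamini-Hochberg over all tested probes. Whether samples came from separate animals is given only as "biological replicate" in the labels, so p-values measure the spread between these samples, and their small number limits the precision. The script was tested on simulated data. Named genes were a fixed set of cancer and colon genes, the 12 largest non-overlapping calls each way, up to 5 bounds each way, the 2 strongest members of each list, and calls within 2 Mb of Apc; St8sia5, other list members called and the split of the protocadherins were named after their values were seen.

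The replicate numbers were not taken as pairs. Same-numbered arrays of different groups had correlated deviations of -0.19 to 0.48 (median 0.053), above 0.1 in 8 of 21 pairs. Differently numbered arrays had -0.47 to 0.35 (median -0.006), above 0.1 in 14 of 63 pairs. The bound that marks arrays of different groups as near-identical (1.1 times the spot noise) was set after the data were seen. Alternatives were other background corrections, scalings, filters, blocks, the deposited value table, 1 probe per gene, each sample left out, and, added after the data were seen, leaving out the clustered protocadherins.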

Additional observations from a re-analysis of the deposited data

How the results depend on the processing

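In all 23 alternatives the shift of chromosome 18 stayed above 0 for adenomas against epithelium (0.11 to 0.33) and for each of the 4 pairwise comparisons of adenoma with epithelium. Of the settings tried on the counts and shifts, 182 stayed within 1.5 times (counts) or the spread between samples (shifts) and 51 did not; of the named genes' settings none of those run turned a sign. With no filter on dim probes the shift was 0.12 for adenomas against epithelium and 0.15 for untreated adenoma against tumor-bearing epithelium. With only probes well above background on all 15 arrays, the calls were 67 (shift 0.11) for adenomas against epithelium, 30 and 36 for untreated and treated adenoma against tumor-bearing epithelium, and 31 and 37 against tumor-free epithelium, where fewer probes were tested. In the same order of the 5 comparisons, with each array its own sample the calls were 298, 234, 252, 174 and 220, near-identical arrays then counting as separate samples; with scan date as a random block 299, 263, 256, 164 and 194; and with slide as a random block 294, 251, 236, 171 and 192. With each array its own sample and the replicate number as a block the calls were 304, 253, 249, 177 and 211. Without the near-identical arrays of different groups, a definition chosen after seeing the data, the 1st comparison had 93 calls, untreated adenoma 43 against tumor-bearing and 31 against tumor-free epithelium, and treated adenoma 44 against tumor-free epithelium. Leaving out 1 sample at a time gave 87 (without untreated adenoma sample 2) to 182 (without tumor-bearing epithelium sample 3) calls for adenomas against epithelium, 16 to 101 and 34 to 125 for untreated and treated adenoma against tumor-bearing epithelium, and 16 to 76 and 26 to 101 against tumor-free epithelium. The shifts, in the same order, ran from 0.13 to 0.33, 0.22 to 0.38, 0.22 to 0.59, 0.039 to 0.20 and 0.097 to 0.35. Where no reason is given, the cause was not tested. Without the clustered protocadherins, chosen after seeing the data, 122 probes were called (72 higher, 50 lower) and the shift was 0.24. Of the 45 called probes chosen by the rules for named genes, 34 kept their call in all alternatives. Other called list members named in the text, such as Mbd1, Me2, St8sia5 and Slc14a1, are not in that count. Among these, Mbd1 and a probe of Slc14a1 lay at the threshold (adjusted p = 0.0497 for each, limma). Signal over background limits the 409 untested members, and the number of samples limits the rest.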

Other observations

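Several of the strongest calls on chromosome 18 fell on probes for cDNA clones, which the choice of named genes left out. They are given here as values and were picked after these were seen. The probe A_52_P241751 of 2700046A07Rik, a cDNA clone gene (chr18:63144306-63144365, mm7, minus strand), read -0.66 and -1.02 in untreated and 0.05 and 0.13 in treated adenoma. In epithelium its 6 samples ran from -7.34 to -6.12, and it was well above background on 1 of 8 arrays. Its difference was 6.25 ± 0.35 (adjusted p = 3.14e-06, limma), with no overlap. A second probe of the same gene, A_51_P371892, was not well above background on any epithelium array. Its adenoma mean was 13.4-fold above the average floor of the epithelium samples. The clones AK015205 (8.62-fold above that average floor) and AK048654 (2.93-fold above it) were also not well above background on any epithelium array. The bound of AK048654 rests on treated adenoma, where it read -2.45 and -3.22; in untreated adenoma it read -5.50 and -6.93 and was well above background on 2 of 3 arrays. Of 74 unnamed probes tested, 9 were called higher and 2 lower in adenoma, beside 7.92% and 9.88% of all tested probes.

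Markers of neutrophils, which are coded elsewhere in the genome, were higher in adenoma in 5 of 5 tested, with a summed level of 4.00 to 5.54 in adenoma and -3.49 to -2.27 in epithelium (log2). Their part in the differences of chromosome 18 genes was not tested.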
